A study of Mus musculus with 20 samples.

Results

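The potassium, calcium, sodium, TRP, anoctamin, CLC and Piezo channel genes were followed across 4 groups of mouse kidney epithelial cells that differ in their Fh1 genotype label. The genes were taken by symbol: every protein-coding gene of the Kcn families (1 gene apart), Cacna, Cacnb and Cacng, Scn, Trpc, Trpm, Trpv, Ano, Clcn or Piezo families with at least 10 counts in at least 5 of the 20 libraries. Of 39179 genes in the tables, 176 had such a symbol and 55 passed the count threshold. The symbol rule takes in auxiliary subunits, and also Trpc4ap, which encodes a protein that binds TRPC4 and is not itself a channel. Of the 121 genes that did not pass, 37 had no count in any library, and the highest count of any of them in a library was 19.

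The data are RNA sequencing counts of 4 groups with 5 libraries each. Rec cells carry the label of re-expressed wild-type Fh1, clone1 and clone19 cells carry the label of an Fh1 deletion, and Fh1_fl_fl cells are labelled Fh1 wild type. The Fh1 product, fumarate hydratase, turns fumarate into malate in the TCA cycle. Each group consists of immortalised epithelial cells of C57BL/6J mouse kidney, grown in the same serum-supplemented DMEM with uridine. Clone1 and clone19 are 1 clone each, so a difference of either from another group cannot be told apart from a difference between clones. Which part of Fh1 was deleted, from which cells Rec was made, and whether the libraries within a group are separate cultures is not stated in the labels. The p-values therefore measure the spread between these libraries, which may be technical.

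Voltage-gated potassium (Kv), calcium (Cav) and sodium (Nav) channels open when the membrane depolarises, and their auxiliary subunits set their surface density and kinetics. Inward rectifiers (Kir) and tandem-pore (K2P) potassium channels hold the resting potential, which in kidney tubule cells drives the transport of salt, bicarbonate and organic solutes. TRP and Piezo channels admit cations in response to stretch, osmotic, chemical or thermal stimuli, anoctamins are calcium-activated chloride channels or lipid scramblases, and the CLC family holds plasma membrane chloride channels and chloride-proton exchangers of endosomes and lysosomes.

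The gene counts of a library summed to between 5988447 and 18972176. A count of 0 allows up to 3 counts, which is 0.158 to 0.501 per 1000000 counts of the unscaled library total in single libraries. CPM elsewhere are counts per 1000000 of the scaled library total. Replicate 3 of clone19 stood apart: the locus Gm42418 took 8.20% of its counts against a median of 0.314% over all libraries. Fh1 itself averaged 71.3 ± 7.08 CPM in Rec, 112 ± 5.93 CPM in clone1, 84.7 ± 7.30 CPM in clone19 and 92.3 ± 6.16 CPM in Fh1_fl_fl (SD, n = 5 each), a count over the whole gene that does not measure the deletion. The 9 epithelial markers all had counts in every group and summed to 4450 to 4960 CPM in Rec, 2480 to 3230 CPM in clone1, 2350 to 2660 CPM in clone19 and 3850 to 4650 CPM in Fh1_fl_fl. The 7 mesenchymal or fibroblast markers summed to 8.25 to 13.8 CPM in Rec, 657 to 726 CPM in clone1, 134 to 153 CPM in clone19 and 13.0 to 18.3 CPM in Fh1_fl_fl. Of these markers Pdgfrb was at 0 in every library and Col3a1 at 0 in Rec, clone1 and Fh1_fl_fl. The part of this shift in the channel differences was not tested.

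Which channels these cells express is shown by levels per exon length, since only these can be compared between genes. The K2P channel gene Kcnk1 had the highest mean level over the groups, at 41.9 in Rec, 7.87 in clone1, 32.4 in clone19 and 52.6 in Fh1_fl_fl CPM per kilobase of exon. Trpc4ap followed, at 18.2 in Rec, 20 in clone1, 22.7 in clone19 and 18.5 in Fh1_fl_fl CPM per kilobase. Cacnb3, a cytoplasmic beta subunit of Cav channels, had 14.2 in Rec, 19.6 in clone1, 14.1 in clone19 and 14.7 in Fh1_fl_fl CPM per kilobase. The endosomal exchanger gene Clcn5 had 12.2 in Rec, 10.4 in clone1, 14.3 in clone19 and 19 in Fh1_fl_fl CPM per kilobase. The pore-forming subunits of Cav channels were lower than this beta subunit, and the highest of them, the T-type gene Cacna1g, reached 1.0 in Rec, 2.7 in clone1, 0.858 in clone19 and 1.02 in Fh1_fl_fl CPM per kilobase. The share of genes that passed the threshold differed between families. Among potassium channel genes, 4 of 39 Kv, 4 of 13 Kv auxiliary and 4 of 12 calcium- or sodium-activated ones passed. So did 3 of 15 Kir, 5 of 14 K2P, 4 of 10 pore-forming Cav and 6 of 16 auxiliary Cav genes. In the TRP families 2 of 8 Trpc, 5 of 8 Trpm and 2 of 6 Trpv genes passed. The counts were 2 of 14 for Nav, 6 of 10 for Ano, 6 of 9 for Clcn and 2 of 2 for Piezo.

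**Figure D1:**
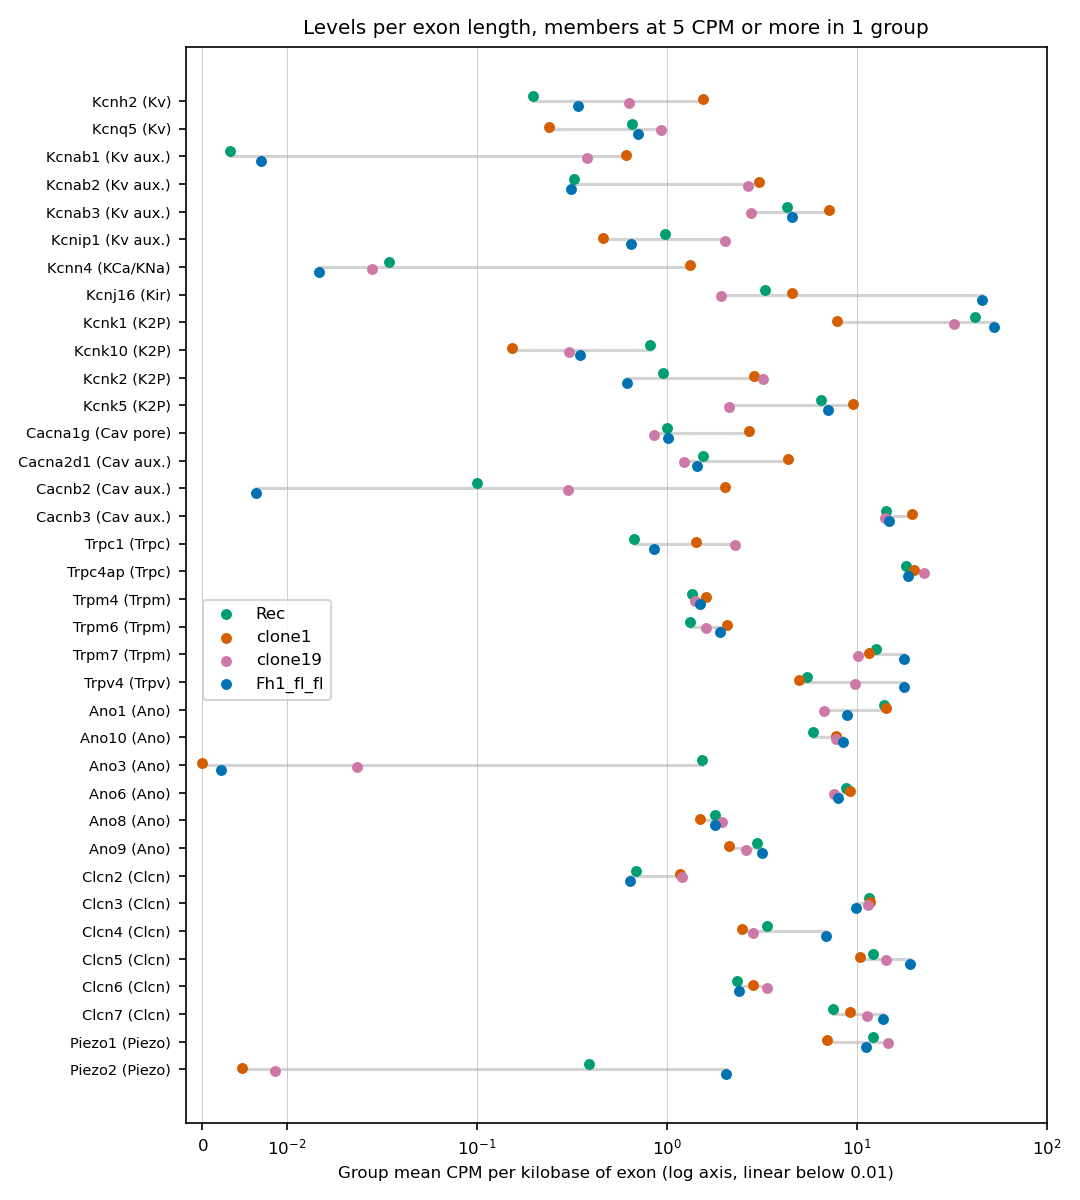
Group means of the members that reach 5 CPM in at least 1 group, in CPM per kilobase of exon on a log axis that is linear below 0.01; each row is a gene with its family, and each point a group mean over 5 libraries. Kcnk1 is highest over the groups, and Kcnab1, Kcnn4, Cacnb2, Ano3 and Piezo2 span the widest ranges.

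Only 37 of the 55 members reached 10 counts in at least 1 library of every group, and 4 passed the threshold through 1 group alone (Kcnn4 and Cacna2d4 through clone1, Kcnmb2 through clone19, Ano3 through Rec). Just inside the threshold, these 4 had 10 counts in 5 libraries. Just outside it, Kcnmb4 had 10 counts in 4 libraries, all of Fh1_fl_fl. Among others, Kcnab1 and Kcnt2 passed through clone1 and clone19 alone, and Piezo2 through Rec and Fh1_fl_fl alone. Such members had to differ between groups, so the counts of members called below describe the set and support nothing about it.

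Most members differed among the groups, as did most genes. Percentages given for all genes are shares of all 12671 genes tested. In this and the next paragraph, counts of higher and lower members are out of all 55 members. In a single test of all 4 groups (edgeR quasi-likelihood test, adjusted p under 0.05 over 12671 genes), 54 of 55 members differed, where 95.9% of all genes did; the exception was Trpm4, a calcium-activated cation channel, at 14.6 ± 2.32 CPM in Rec, 17.4 ± 2.29 in clone1, 15.3 ± 2.0 in clone19 and 16.3 ± 1.99 in Fh1_fl_fl. Rec differed from Fh1_fl_fl in 30 members, or 54.5% (all genes, 70.8%), with 10 higher (all genes, 33.4%) and 20 lower (all genes, 37.4%). Clone1 differed from Fh1_fl_fl in 46 members, or 83.6% (all genes, 78.6%), with 25 higher (all genes, 38%) and 21 lower (all genes, 40.5%). Clone19 differed from Fh1_fl_fl in 38 members, or 69.1% (all genes, 72.9%), with 17 higher (all genes, 36.8%) and 21 lower (all genes, 36.1%). These 3 comparisons share the Fh1_fl_fl libraries. Rec differed from clone1 in 40 members, or 72.7% (all genes, 77.9%), with 13 higher (all genes, 39.7%) and 27 lower (all genes, 38.1%). Rec differed from clone19 in 41 members, or 74.5% (all genes, 73.8%), with 17 higher (all genes, 35.8%) and 24 lower (all genes, 38%). Clone1 differed from clone19 in 42 members, or 76.4% (all genes, 65.1%), with 22 higher (all genes, 31.6%) and 20 lower (all genes, 33.5%). Without clone19 replicate 3 the counts that involve clone19 were 38 against Fh1_fl_fl, 39 for Rec against clone19 and 39 for clone1 against clone19.

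Changes were also tested to exceed 2-fold. Rec against Fh1_fl_fl did so in 11 members, where 11.1% of all genes did so, and of these 3 were higher (all genes, 3.61%) and 8 lower (all genes, 7.44%). In clone1 against Fh1_fl_fl this held for 23 members, where 21.7% of all genes did so, and of these 14 were higher (all genes, 10.9%) and 9 lower (all genes, 10.9%). In clone19 against Fh1_fl_fl it held for 18 members, where 15.5% of all genes did so, and of these 9 were higher (all genes, 8.2%) and 9 lower (all genes, 7.28%). Rec and clone1 were more than 2-fold apart in 19 members, where 22% of all genes did so, and of these 6 were higher (all genes, 9.12%) and 13 lower (all genes, 12.9%). Rec and clone19 were so in 15 members, where 15.5% of all genes did so, and of these 4 were higher (all genes, 5.11%) and 11 lower (all genes, 10.4%). Clone1 and clone19 were so in 19 members, where 9.58% of all genes did so, and of these 11 were higher (all genes, 4.79%) and 8 lower (all genes, 4.79%). The median log2 fold change over the members against Fh1_fl_fl was -0.14 in Rec, 0.13 in clone1 and -0.10 in clone19, beside -0.03, -0.03 and 0.004 over all genes. With genes at or near 0 counts set to their bounds the first and second of these medians became -0.15 and 0.18.

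**Figure D2:**
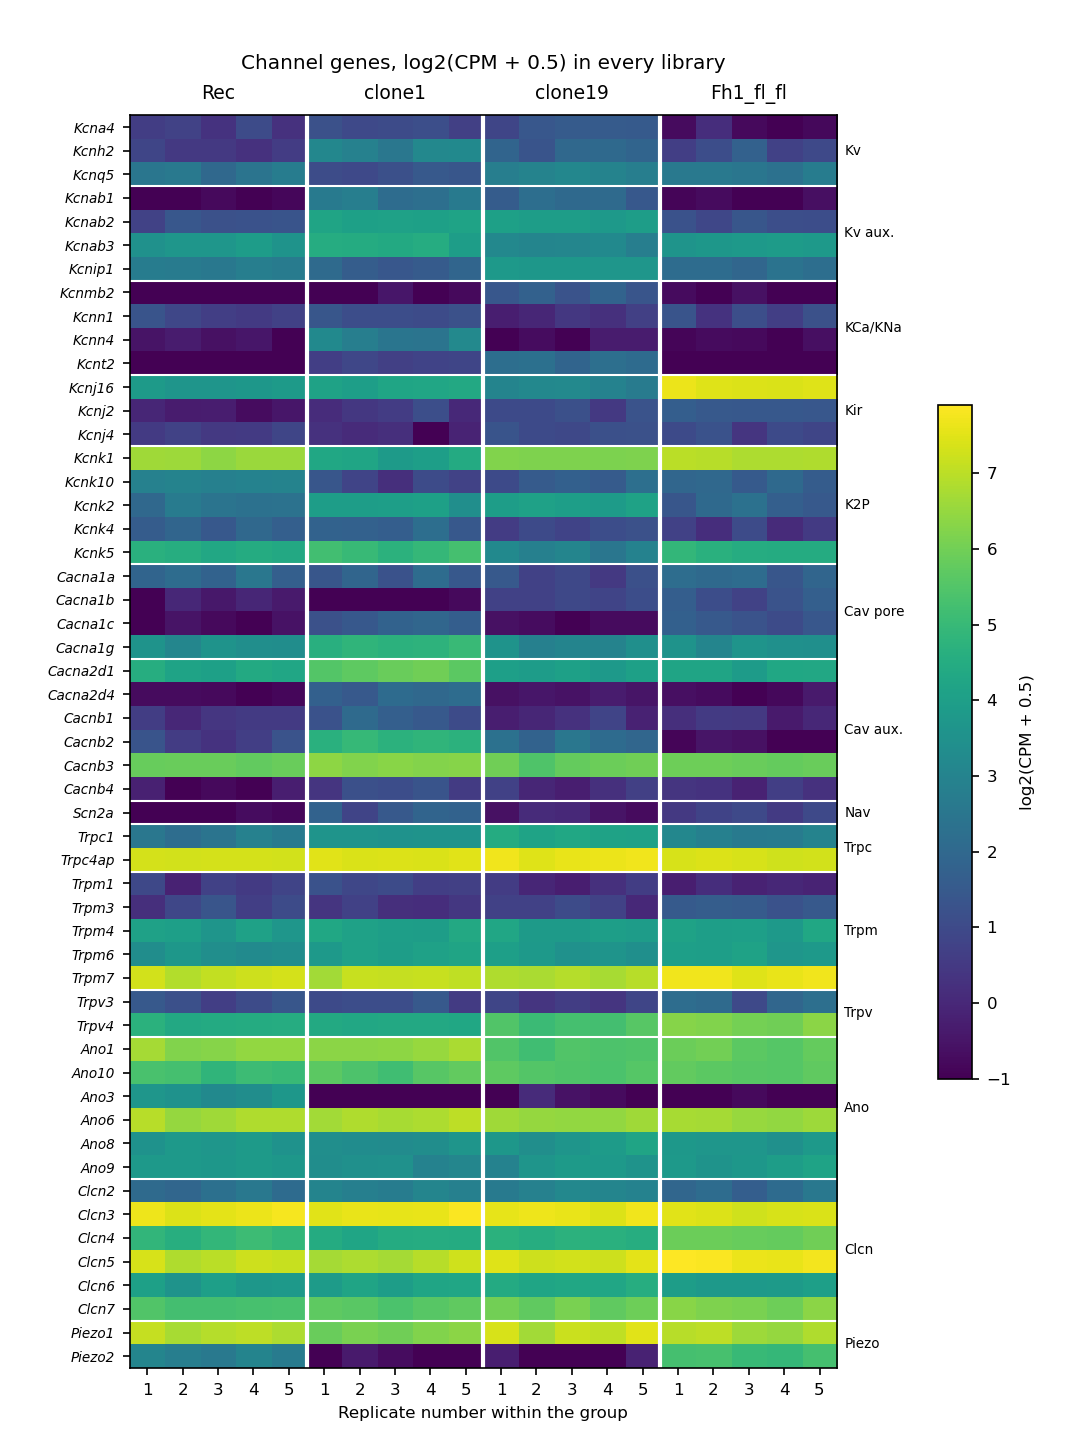
Levels of 53 of the 55 members in each of the 20 libraries, as log2 of CPM plus 0.5, with genes in rows by family and libraries in columns by group and replicate number. Clcn3, Clcn5 and Trpm7 are bright in every library, Kcnj16 is brightest in Fh1_fl_fl, and Ano3 is coloured above the floor in Rec, Kcnn4 in clone1 and Kcnmb2 in clone19.

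In both clones, 5 members were over 2-fold higher than in Rec and also than in Fh1_fl_fl: the Kv beta subunits Kcnab1 and Kcnab2, the mechanosensitive K2P channel Kcnk2 (TREK-1), the sodium-activated potassium channel Kcnt2 and the Cav beta subunit Cacnb2. Of all genes, 3.17% followed this pattern. Kcnab1, Kcnab2, Kcnk2 and Kcnt2 held it in all 27 alternative analyses, while Cacnb2 lost the over-2-fold call between Rec and clone19 in 14 of them (among these, without Rec replicate 2, 3 or 4, clone1 replicate 1, 3, 4 or 5, or clone19 replicate 1, 3 or 4), with log2 fold changes from -1.50 to -1.31 where it was lost. The mesenchymal markers were higher in both clones too (5 of 5 tested, against Fh1_fl_fl), and their part in this pattern was not tested. These 5 members were picked by this shared pattern, and the clones differed over 2-fold in Cacnb2 and Kcnt2. As Kcnab1 and Kcnt2 passed the count threshold through the clones alone, their place in this pattern is a description. The 300 bases around 1 start of each of the 5 are printed here, from 250 before to 50 after it. The start is that of RefSeq (GRCm38.p6) nearest to the annotated beginning of the gene, and the sequence runs 5′ to 3′ on the gene's strand. Capitals mark matches on either strand to ACGTG (the core of the hypoxia response element), TGACNNNGC (the core of the antioxidant response element) or CAGGTG (an E-box).
Kcnab1 promoter, chr3:65108764-65109063, plus strand: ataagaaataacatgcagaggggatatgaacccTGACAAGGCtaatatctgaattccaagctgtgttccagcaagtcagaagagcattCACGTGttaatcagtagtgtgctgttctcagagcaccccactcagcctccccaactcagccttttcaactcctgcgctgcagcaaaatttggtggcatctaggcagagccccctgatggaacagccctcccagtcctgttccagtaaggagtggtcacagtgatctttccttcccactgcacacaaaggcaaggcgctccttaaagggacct
Kcnab2 promoter, chr4:152477500-152477799, minus strand: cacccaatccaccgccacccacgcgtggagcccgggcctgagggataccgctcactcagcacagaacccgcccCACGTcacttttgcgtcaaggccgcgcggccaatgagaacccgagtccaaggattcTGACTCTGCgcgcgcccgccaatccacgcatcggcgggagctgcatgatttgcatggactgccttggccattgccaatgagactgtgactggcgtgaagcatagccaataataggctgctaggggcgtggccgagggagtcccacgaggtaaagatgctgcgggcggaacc
Kcnk2 promoter, chr1:189402224-189402523, minus strand: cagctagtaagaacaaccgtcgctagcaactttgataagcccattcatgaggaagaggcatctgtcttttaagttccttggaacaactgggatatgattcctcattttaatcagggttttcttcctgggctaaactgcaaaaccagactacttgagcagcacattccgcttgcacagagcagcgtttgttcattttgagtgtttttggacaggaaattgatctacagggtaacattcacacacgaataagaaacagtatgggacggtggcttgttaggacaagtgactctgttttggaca
Kcnt2 promoter, chr1:140245468-140245767, plus strand: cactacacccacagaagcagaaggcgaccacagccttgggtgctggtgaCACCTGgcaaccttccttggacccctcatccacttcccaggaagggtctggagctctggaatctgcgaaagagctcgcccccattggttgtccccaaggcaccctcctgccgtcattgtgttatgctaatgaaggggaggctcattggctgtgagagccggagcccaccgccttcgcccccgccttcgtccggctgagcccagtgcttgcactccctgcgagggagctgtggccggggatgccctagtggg
Cacnb2 promoter, chr2:14604056-14604355, plus strand: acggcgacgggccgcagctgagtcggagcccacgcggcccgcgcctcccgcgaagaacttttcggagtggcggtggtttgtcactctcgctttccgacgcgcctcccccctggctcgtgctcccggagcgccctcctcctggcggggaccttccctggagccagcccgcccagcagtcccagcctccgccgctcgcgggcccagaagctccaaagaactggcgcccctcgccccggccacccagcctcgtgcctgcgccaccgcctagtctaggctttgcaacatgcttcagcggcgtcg
The Kcnab1 window held ACGTG on both strands in 1 palindrome, from positions -162 and -161, and TGACAAGGC, a match to TGACNNNGC, from position -217, counted from the transcription start. The Kcnab2 window held ACGTG on the opposite strand, from position -177, and TGACTCTGC, a match to TGACNNNGC, from position -121. The Kcnt2 window held CAGGTG on the opposite strand from position -201. None of the 3 motifs was matched in the windows of Kcnk2 and Cacnb2 printed here, nor at their other starts. Starts that are not printed also held ACGTG in Kcnab1 and Kcnab2 and CAGGTG in Kcnab2. A further Kcnab1 start held none of the motifs. In the windows of all 32851 RefSeq starts of this length, 19.6% held ACGTG, 12.4% TGACNNNGC and 20.2% CAGGTG. RefSeq lists 3 starts for Kcnab1, 3 for Kcnab2, 4 for Kcnk2, 1 for Kcnt2 and 2 for Cacnb2, and gene counts do not show which start these cells use.

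In Rec, clone1 and clone19 alike, 3 members were over 2-fold lower than in Fh1_fl_fl (2.2% of all genes), among them Kcnj16 and Piezo2, and 2 were over 2-fold higher (Kcna4 and Cacnb2; 1.24%). Kcnj16 and Piezo2 held this pattern in all 27 alternatives, while the count of 3 became 2 with DESeq2 and without Fh1_fl_fl replicate 1 or 2 or clone19 replicate 2 or 4. When only the groups compared were fitted, Kcna4 and Cacnb2 had no value for Rec against Fh1_fl_fl, so their pattern could not be tested there. Piezo2 was the 1 member over 2-fold lower in both clones than in Rec and than in Fh1_fl_fl (1.44% of all genes), a count of 2 without Rec replicate 2. As it passed the count threshold through Rec and Fh1_fl_fl alone, its place there is a description. Other patterns set 1 group apart. Over 2-fold higher in clone1 than in each other group were Kcnn4, Cacna1g, Cacna2d1, Cacna2d4 and Cacnb2 (2.83%), and over 2-fold lower there were Kcnk1, Kcnq5 and Cacna1b (1.59%). Clone19 was over 2-fold higher in Kcnmb2 and Kcnt2 (1.36%) and lower in Kcnk5 (0.687%) than each other group, and Rec was higher in Ano3 (0.663%). No member was over 2-fold lower in Rec than in each other group, against 2.38% of all genes, but 1 member was so in each of 7 alternatives: Cacnb4 without Rec replicate 1 or 5, Kcnj2 without clone1 replicate 5, and Scn2a without Rec replicate 4, clone1 replicate 2 or clone19 replicate 5 and with library totals. Cacna1b lost its place in 6 alternatives, among them those without Rec replicate 2 or clone1 replicate 1, 2 or 3, at log2 fold changes for Rec against clone1 from 2.97 to 3.28 in the 5 of these that gave a value. With DESeq2, Kcnq5 left the clone1 pattern and Kcnt2 the clone19 pattern.

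**Figure D3:**
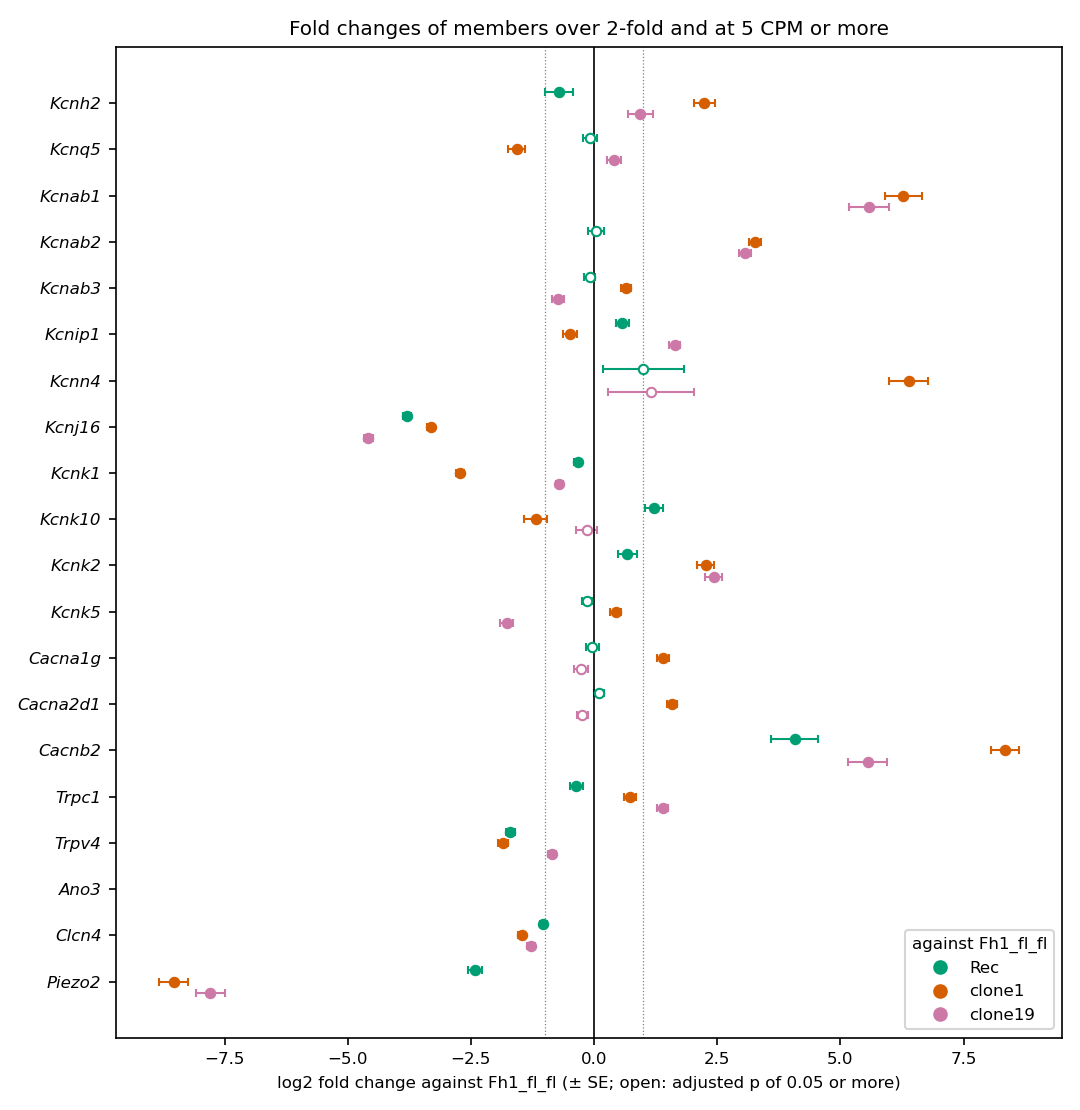
Log2 fold changes against Fh1_fl_fl (points, with standard errors as bars) of 20 members over 2-fold in at least 1 comparison and at 5 CPM or more in a group, with Rec, clone1 and clone19 as 3 offset points in each row; open points did not pass the test. Fitted values are left out where a group had 3 counts or fewer in all, which removes Ano3 and the Rec point of Kcnab1. Piezo2, Kcnj16, Trpv4 and Clcn4 lie left of 0 in all 3 groups, and Cacnb2 right of 0.

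Potassium channels were the largest class, with 20 members. Against Fh1_fl_fl, 5 were higher and 4 lower in Rec, 10 higher and 8 lower in clone1, and 9 higher and 7 lower in clone19. Of all genes, 33.4% were higher and 37.4% lower in Rec, 38% were higher and 40.5% lower in clone1 and 36.8% were higher and 36.1% lower in clone19. None of the 3 inward rectifiers was higher in Rec, clone1 or clone19. Kcnj16 (ENSMUSG00000051497, chr11:110968033-111027968) encodes Kir5.1, which pairs with Kir4.1 in the basolateral membrane of distal tubules. It had 14.1, 11.9, 12.1, 12.7 and 13.8 CPM in Rec, 17, 15.6, 18.4, 18.6 and 20.1 CPM in clone1, 7.62, 8.4, 8.57, 7.17 and 6.03 CPM in clone19 and 198, 176, 175, 169 and 176 CPM in Fh1_fl_fl. All 15 libraries of the other groups lay below every Fh1_fl_fl library, and the 4 groups did not overlap one another. The log2 fold change against Fh1_fl_fl reached -3.79 ± 0.08 (SE) in Rec, -3.32 ± 0.08 in clone1 and -4.58 ± 0.09 in clone19 (edgeR adjusted p = 2.05e-23, 4.67e-23 and 3.75e-24 in that order). In these bulk libraries, fewer cells with a transcript and less transcript per cell cannot be told apart. Kcnj2, the strong inward rectifier Kir2.1, lies 38.2 kb from Kcnj16 on the same strand of chromosome 11 with no coding gene between them, and was also lower in all 3 groups, at 0.287 ± 0.128 CPM in Rec, 0.931 ± 0.46 in clone1, 1.51 ± 0.399 in clone19 and 2.32 ± 0.211 in Fh1_fl_fl. Its log2 fold change of -0.65 ± 0.24 in clone19 against Fh1_fl_fl did not pass the test with DESeq2, without Fh1_fl_fl replicate 1 or without clone19 replicate 4 (adjusted p up to 0.0852; edgeR and DESeq2). Kcnj4 (Kir2.3) was lower in clone1, at 0.474 CPM against 1.4 in Fh1_fl_fl (log2 fold change -1.45 ± 0.32).

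The K2P channels, which carry background potassium current, moved in different directions. Kcnk1 (ENSMUSG00000033998, chr8:125995170-126030685), the weakly rectifying channel TWIK-1, had 99.7, 98, 83.6, 93.6 and 93.6 CPM in Rec, 19.2, 18.3, 14.1, 15.3 and 21.2 CPM in clone1, 74.6, 72.9, 72.2, 70.2 and 72 CPM in clone19 and 127, 123, 111, 112 and 115 CPM in Fh1_fl_fl. Clone1 stood far below the rest, and Rec, clone19 and Fh1_fl_fl were also separate from one another. The log2 fold change was -2.73 ± 0.08 in clone1 against Fh1_fl_fl and 2.40 ± 0.08 in Rec against clone1. Kcnk5 (ENSMUSG00000023243, chr14:20140057-20181809), the alkali-activated channel TASK-2 of proximal tubule cells, had 24.5, 23.1, 20, 21.8 and 20.4 CPM in Rec, 36.9, 31.5, 25.7, 30.2 and 38.7 CPM in clone1, 8.95, 6.9, 7.87, 5.21 and 7.26 CPM in clone19 and 29, 24.5, 22.5, 22 and 22.1 CPM in Fh1_fl_fl. Here clone19 was the low group, below every library of the others, with log2 fold changes of -1.77 ± 0.13 against Fh1_fl_fl and 1.63 ± 0.14 for Rec against clone19. Rec and Fh1_fl_fl overlapped, and so did clone1 and Fh1_fl_fl.

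Kcnk2 (ENSMUSG00000037624, chr1:189207930-189402273) had 3.55, 6.09, 4.9, 4.47 and 4.57 CPM in Rec, 14.9, 15, 15.4, 16.2 and 9.97 CPM in clone1, 15.2, 16.7, 15.6, 14.5 and 17.2 CPM in clone19 and 2.1, 3.63, 4.45, 2.72 and 2.3 CPM in Fh1_fl_fl. Every library of either clone lay above every library of Rec and Fh1_fl_fl, and the clones overlapped each other. Its log2 fold changes were 2.27 ± 0.17 in clone1 and 2.43 ± 0.17 in clone19 against Fh1_fl_fl, and -1.59 ± 0.16 in Rec against clone1 and -1.75 ± 0.16 in Rec against clone19. Rec was also higher than Fh1_fl_fl (0.68 ± 0.19), with overlapping libraries. The antisense transcript A430027H14Rik covers 12.2% of its exon bases. Kcnk10 (ENSMUSG00000033854, chr12:98429437-98578310), the related channel TREK-2, had 7.01, 7.47, 6.87, 7.29 and 7.35 CPM in Rec, 2.09, 1.26, 0.66, 1.53 and 1.21 CPM in clone1, 1.49, 2.42, 2.8, 2.46 and 4.29 CPM in clone19 and 3.33, 3.53, 2.35, 3.65 and 2.52 CPM in Fh1_fl_fl. Rec was above every library of the other groups, with log2 fold changes of 2.41 ± 0.22 against clone1, 1.37 ± 0.20 against clone19 and 1.22 ± 0.18 against Fh1_fl_fl, and clone1 was below every Fh1_fl_fl library. Kcnk4 (TRAAK), the remaining mechanosensitive member, was at 2.84 ± 0.536 CPM in Rec, 2.98 ± 0.697 in clone1, 1.45 ± 0.34 in clone19 and 0.969 ± 0.402 in Fh1_fl_fl. It was higher in Rec and in clone1 than in Fh1_fl_fl (log2 1.49 ± 0.23 and 1.54 ± 0.24). The same-strand gene Catsperz covers 13.1% of the exon bases of Kcnk4. Catsperz was at 0.844 CPM in Rec, 0.877 in clone1, 0.444 in clone19 and 0.306 in Fh1_fl_fl, and its part in the Kcnk4 differences was not tested.

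The Kv beta subunits are cytoplasmic proteins of the aldo-keto reductase fold that bind NADPH and slow or speed inactivation of Kv1 channels. Kcnab1 (ENSMUSG00000027827, chr3:65109384-65378223) had 0, 0, 0.0817, 0 and 0.0579 CPM in Rec, 5.77, 6.48, 3.96, 4.27 and 5.72 CPM in clone1, 2.49, 4.14, 3.67, 3.73 and 2.25 CPM in clone19 and 0.0489, 0.104, 0, 0 and 0.144 CPM in Fh1_fl_fl. Both clones were above the rest and overlapped, while no Rec library exceeded 0.0817 CPM and no Fh1_fl_fl library 0.144 CPM. Clone1 had a log2 fold change of 6.28 ± 0.37 against Fh1_fl_fl, and clone19 one of 5.58 ± 0.41. In Rec the ratio was 158-fold lower than clone1 (95% counting interval 43.3 to 1310) and 96.2-fold lower than clone19 (26.1 to 803). Kcnab2 (ENSMUSG00000028931, chr4:152390742-152477871) had 1.21, 2.16, 1.8, 1.88 and 1.97 CPM in Rec, 18.1, 16.3, 16.6, 16.3 and 17.6 CPM in clone1, 16.2, 15, 15, 13.2 and 15 CPM in clone19 and 1.86, 1.35, 2.11, 1.72 and 1.66 CPM in Fh1_fl_fl. Every library of either clone was above every library of Rec and Fh1_fl_fl, which overlapped each other. The log2 fold changes against Fh1_fl_fl were 3.26 ± 0.12 in clone1 (edgeR adjusted p = 6.10e-19) and 3.07 ± 0.12 in clone19 (edgeR adjusted p = 9.31e-18), and that of Rec was 0.04 ± 0.17 (edgeR adjusted p = 0.856).

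Kcnab3 (ENSMUSG00000018470, chr11:69326258-69333042), the third beta subunit gene, had 10.8, 12.4, 12.3, 14.7 and 11.4 CPM in Rec, 22.5, 21.7, 20.6, 22.6 and 15.2 CPM in clone1, 8.45, 7.71, 8.04, 8.85 and 6.54 CPM in clone19 and 11.6, 12.5, 13.4, 14.3 and 13.5 CPM in Fh1_fl_fl. Clone1 lay above and clone19 below every library of the other groups, while Rec and Fh1_fl_fl overlapped. The difference between clone1 and clone19 was 1.37 ± 0.12 on the log2 scale. Kcnip1 (ENSMUSG00000053519, chr11:33629339-33993152) encodes a calcium-binding protein that assembles with Kv4 channels. It had 6.26, 5.99, 5.48, 6.58 and 5.96 CPM in Rec, 3.68, 2.61, 2.2, 2.44 and 3.29 CPM in clone1, 13.3, 12.7, 12.6, 12.3 and 12.2 CPM in clone19 and 3.92, 3.94, 3.32, 4.8 and 4.17 CPM in Fh1_fl_fl. The clones were again at opposite ends, clone19 above every other library and clone1 lowest on average, with a log2 fold change of -2.12 ± 0.13 for clone1 against clone19. Against Fh1_fl_fl, Kcnip1 was higher in Rec (0.58 ± 0.12) and in clone19 (1.63 ± 0.12) and lower in clone1 (-0.48 ± 0.14).

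Among the pore-forming Kv genes, Kcnh2 (ENSMUSG00000038319, chr5:24319589-24351604), the ERG channel of the rapid cardiac delayed rectifier current, had 1.31, 0.884, 0.899, 0.706 and 0.984 CPM in Rec, 8.16, 6.97, 5.28, 8.39 and 8.93 CPM in clone1, 3.15, 1.96, 3.5, 3.64 and 3.17 CPM in clone19 and 1.08, 1.66, 2.92, 1.15 and 1.44 CPM in Fh1_fl_fl. Clone1 was above every library of the other groups, and the log2 fold change was -2.95 ± 0.24 for Rec against clone1, 1.29 ± 0.21 for clone1 against clone19 and 2.24 ± 0.21 for clone1 against Fh1_fl_fl. Kcnq5 (ENSMUSG00000028033, chr1:21398403-21961942), a channel of the M-type current, had 5.14, 5.5, 3.51, 4.94 and 6.19 CPM in Rec, 1.59, 1.45, 1.76, 2.29 and 2.08 CPM in clone1, 6.46, 7.48, 8.22, 7.37 and 6.44 CPM in clone19 and 5.58, 5.6, 5.18, 4.51 and 6.12 CPM in Fh1_fl_fl. It was lowest in clone1, without overlap with any other group, at a log2 fold change of -1.57 ± 0.17 against Fh1_fl_fl. Kcna4, the A-type channel Kv1.4, was low everywhere but higher in Rec, clone1 and clone19 than in Fh1_fl_fl, at 1.03 ± 0.343 CPM in Rec, 1.52 ± 0.254 in clone1, 2.15 ± 0.475 in clone19 and 0.175 ± 0.253 in Fh1_fl_fl.

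The calcium- and sodium-activated potassium channel genes that passed did not share a pattern over the groups. Kcnn4 (ENSMUSG00000054342, chr7:24370263-24386690), the intermediate-conductance calcium-activated channel KCa3.1, had 0.187, 0.295, 0.163, 0.235 and 0 CPM in Rec, 8.86, 6.58, 5.06, 4.88 and 8.58 CPM in clone1, 0, 0.115, 0, 0.295 and 0.307 CPM in clone19 and 0.0489, 0.104, 0.081, 0 and 0.144 CPM in Fh1_fl_fl. The 5 clone1 libraries stood alone, no library of the other groups exceeded 0.307 CPM, and those groups overlapped. As Kcnn4 passed the count threshold through clone1 alone, the log2 fold changes of -5.38 for Rec against clone1, 5.23 for clone1 against clone19 and 6.38 for clone1 against Fh1_fl_fl are a description. Kcnt2 had no count in any Rec or Fh1_fl_fl library and averaged 1.21 ± 0.117 CPM in clone1 and 3.93 ± 0.491 CPM in clone19. Against 3 counts over the whole group, it was at least 28.6-fold higher in clone1 and at least 93.4-fold higher in clone19 than in Fh1_fl_fl, and at least 23.9-fold lower in Rec than in clone1 and 78.2-fold lower than in clone19. Kcnmb2, a beta subunit of the large-conductance BK channel, averaged 0, 0.0613, 2.41 and 0.052 CPM in Rec, clone1, clone19 and Fh1_fl_fl, and passed the threshold through clone19 alone. Kcnn1, the small-conductance channel SK1, was lower in clone19, at 0.696 ± 0.318 CPM against 1.45 ± 0.526 CPM in Fh1_fl_fl (log2 -1.07 ± 0.32).

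**Figure D4:**
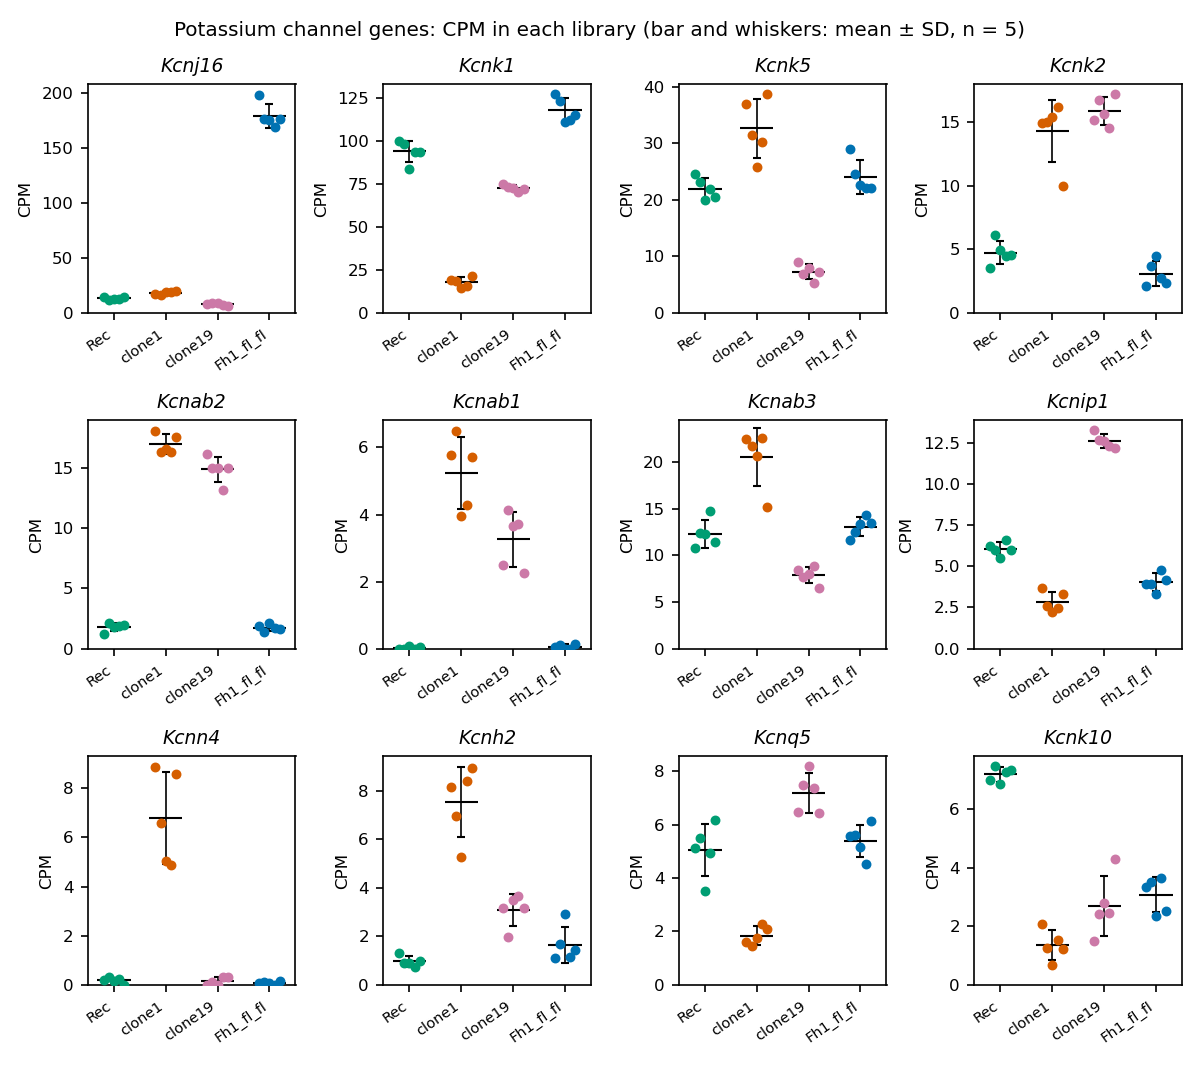
CPM of 12 potassium channel genes in each library (points), with the mean and SD of the 5 libraries of a group (bar and whiskers), on axes that start at 0 and differ between panels. Kcnj16 stands high in Fh1_fl_fl alone, Kcnk2, Kcnab1 and Kcnab2 stand high in both clones, and Kcnk1 and Kcnq5 are low in clone1.

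Of the 10 members that are Cav subunits, 1 was higher and 3 lower in Rec, 7 higher and 1 lower in clone1, and 1 higher and 3 lower in clone19, against Fh1_fl_fl. The shares of all genes higher and lower were 33.4% and 37.4% in Rec, 38% and 40.5% in clone1 and 36.8% and 36.1% in clone19. All 6 auxiliary Cav genes were among the 7 higher in clone1, although the call of Cacnb4 was lost with library totals and without Fh1_fl_fl replicate 3 or clone1 replicate 2, 3 or 4 (edgeR adjusted p up to 0.0775). The pore-forming Cacna1g (ENSMUSG00000020866, chr11:94408391-94474198), the low-voltage-activated T-type channel Cav3.1, had 11.5, 8.05, 11.4, 10.1 and 9.89 CPM in Rec, 24.4, 27.7, 25.8, 26.5 and 32.6 CPM in clone1, 11.3, 6.9, 7.52, 7.47 and 10.3 CPM in clone19 and 11.4, 7.89, 11.6, 10.5 and 10.4 CPM in Fh1_fl_fl. Every clone1 library was above every other library, and Rec, clone19 and Fh1_fl_fl overlapped. The log2 fold change was -1.43 ± 0.12 for Rec against clone1, 1.67 ± 0.13 for clone1 against clone19 and 1.40 ± 0.12 for clone1 against Fh1_fl_fl.

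Cacna2d1 (ENSMUSG00000040118, chr5:15934691-16374511) encodes alpha2delta-1, the extracellular subunit that raises the surface density of Cav channels and binds gabapentin. It had 22.7, 17.4, 16.3, 20.9 and 19 CPM in Rec, 45.1, 51.8, 58.8, 62.2 and 50.7 CPM in clone1, 15.7, 14.7, 16.1, 13.5 and 16.3 CPM in clone19 and 18.1, 17.7, 14.4, 19.4 and 19.9 CPM in Fh1_fl_fl. As with Cacna1g, every clone1 library was above all others, with a log2 fold change of 1.58 ± 0.10 against Fh1_fl_fl (edgeR adjusted p = 4.09e-14). Cacnb2 (ENSMUSG00000057914, chr2:14603088-14987908), a beta subunit, had 1.96, 0.982, 0.736, 1.06 and 1.91 CPM in Rec, 24.9, 30.5, 25.7, 27.6 and 25.9 CPM in clone1, 4.47, 2.99, 5.24, 3.83 and 3.37 CPM in clone19 and 0.0489, 0.208, 0.162, 0 and 0 CPM in Fh1_fl_fl. No 2 groups overlapped, and the order was clone1, clone19, Rec and Fh1_fl_fl. Against Fh1_fl_fl the log2 fold change was 4.07 ± 0.48 in Rec, 8.35 ± 0.28 in clone1 and 5.55 ± 0.40 in clone19, and Rec lay between the clones and Fh1_fl_fl. Cacnb3, by far the highest beta subunit gene per length, was at 57.1 ± 1.82 CPM in Rec, 78.4 ± 4.29 in clone1, 56.7 ± 8.31 in clone19 and 58.9 ± 2.33 in Fh1_fl_fl, higher in clone1 by a log2 fold change of 0.41 ± 0.07 against Fh1_fl_fl. Cacnb1, a further beta subunit, was at 0.841 ± 0.209 CPM in Rec, 2.43 ± 0.825 in clone1, 0.635 ± 0.384 in clone19 and 0.65 ± 0.27 in Fh1_fl_fl (log2 1.93 ± 0.31 for clone1 against Fh1_fl_fl).

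The other Cav members were below 5 CPM. The L-type pore Cacna1c (Cav1.2) was at 0.0903 ± 0.093 CPM in Rec, 2.61 ± 0.614 in clone1, 0.0963 ± 0.0602 in clone19 and 2.16 ± 0.465 in Fh1_fl_fl, with log2 fold changes against Fh1_fl_fl of -4.28 ± 0.39 in Rec and -4.32 ± 0.44 in clone19, and with clone1 and Fh1_fl_fl overlapping. Cacna2d4, which lies 40.1 kb from Cacna1c on the other strand of chromosome 6, averaged 0.0663 CPM in Rec, 3.27 in clone1, 0.214 in clone19 and 0.122 in Fh1_fl_fl, having passed the threshold through clone1 alone. The N-type pore Cacna1b (Cav2.2) was at 0.299 ± 0.199 CPM in Rec, 0.0173 ± 0.0388 in clone1, 1.32 ± 0.201 in clone19 and 2.05 ± 0.66 in Fh1_fl_fl, and its clone1 level rested on 3 counts or fewer in all, a ratio 102-fold lower than Fh1_fl_fl (95% counting interval 18.1 to 4060). The P/Q-type pore Cacna1a (Cav2.1) was lower in clone19 than in Fh1_fl_fl, at 1.5 ± 0.557 against 3.39 ± 0.795 CPM (log2 -1.23 ± 0.27).

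Among the Nav members, Scn2a, the neuronal channel Nav1.2, was at 0.0351 ± 0.0525 CPM in Rec, 2.54 ± 0.791 in clone1, 0.313 ± 0.22 in clone19 and 1.19 ± 0.274 in Fh1_fl_fl, a ratio in Rec 33.9-fold lower than Fh1_fl_fl (95% counting interval 9.1 to 285). It was higher in clone1 than in Fh1_fl_fl (log2 1.1 ± 0.26) and lower in clone19 (-1.93 ± 0.43).

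The 2 mechanosensitive Piezo channels parted. Piezo2 (ENSMUSG00000041482, chr18:63010213-63387183), the channel of touch and proprioception, had 7.75, 6.48, 5.64, 7.64 and 5.96 CPM in Rec, 0, 0.29, 0.11, 0 and 0 CPM in clone1, 0.331, 0, 0, 0 and 0.409 CPM in clone19 and 38, 39, 31.4, 30.2 and 38.1 CPM in Fh1_fl_fl. The clones were at or near 0 and overlapped, Rec lay between them and Fh1_fl_fl, and no Rec library reached the level of any Fh1_fl_fl library. The log2 fold change was -2.42 ± 0.14 for Rec against Fh1_fl_fl, 6.12 ± 0.40 for Rec against clone1 and 5.37 ± 0.38 for Rec against clone19. Piezo1, which senses shear and stretch in many epithelia, was far more abundant, at 121 ± 13.2 CPM in Rec, 69.1 ± 9.1 in clone1, 146 ± 31.1 in clone19 and 111 ± 17.1 in Fh1_fl_fl, and was lower in clone1 than in every other group (log2 0.81 ± 0.12 for Rec against clone1, -1.07 ± 0.13 for clone1 against clone19, -0.68 ± 0.12 for clone1 against Fh1_fl_fl). The opposite-strand gene Ctu2 covers 24.6% of the exon bases of Piezo1, and was itself at 39 CPM in Rec, 24.2 in clone1, 30.3 in clone19 and 26.6 in Fh1_fl_fl. With no strand setting stated, reads over the shared bases cannot be told apart.

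Of the 9 TRP members, 1 was higher and 6 lower in Rec than in Fh1_fl_fl. In clone1 and in clone19, 2 were higher and 4 lower. Of all genes, 33.4% were higher and 37.4% lower in Rec, 38% and 40.5% in clone1 and 36.8% and 36.1% in clone19. Trpc4ap, which is not itself a channel, is among the 9 and was 1 of the 2 higher in clone19. Trpv4 (ENSMUSG00000014158, chr5:114622152-114658421), a calcium-permeable channel opened by cell swelling and flow, had 25.6, 20.4, 21.2, 22.1 and 22.4 CPM in Rec, 20.9, 19.6, 20.4, 20.3 and 19.3 CPM in clone1, 44.4, 32.9, 38.1, 37.6 and 47.4 CPM in clone19 and 78.3, 74.4, 66.2, 62 and 80.9 CPM in Fh1_fl_fl. Rec and clone1 overlapped at the bottom, clone19 was above both, and Fh1_fl_fl was above all. Relative to Fh1_fl_fl its log2 fold change was -1.70 ± 0.09 in Rec, -1.85 ± 0.09 in clone1 and -0.85 ± 0.09 in clone19 (edgeR adjusted p = 2.94e-15, 3.65e-16 and 1.70e-09 in that order). Trpv3, a warmth-activated channel, was also lower in all 3, at 1.75 ± 0.494 CPM in Rec, 1.61 ± 0.476 in clone1, 1.06 ± 0.266 in clone19 and 3.37 ± 1.12 in Fh1_fl_fl.

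Trpc1 (ENSMUSG00000032839, chr9:95705082-95750375), a cation channel subunit linked to store-operated calcium entry, had 5.23, 4.03, 4.9, 7.06 and 5.84 CPM in Rec, 11.7, 11.7, 11.1, 11.4 and 11.3 CPM in clone1, 21.7, 17.3, 19.1, 16.9 and 16.8 CPM in clone19 and 8.22, 6.85, 5.83, 6.01 and 7.41 CPM in Fh1_fl_fl. Clone19 was highest and clone1 next, each apart from the others, while Rec and Fh1_fl_fl overlapped. Its log2 fold changes were -1.08 ± 0.13 for Rec against clone1, -1.75 ± 0.12 for Rec against clone19 and 1.39 ± 0.12 for clone19 against Fh1_fl_fl. Trpm7, the ubiquitous magnesium-permeable channel with a kinase domain, was the highest Trpm gene per length and was lower in the 3 other groups than in Fh1_fl_fl, at 144 ± 17.9 CPM in Rec, 132 ± 17.1 in clone1, 115 ± 7.56 in clone19 and 201 ± 14.7 in Fh1_fl_fl (log2 -0.48 ± 0.09 in Rec, -0.61 ± 0.09 in clone1, -0.81 ± 0.09 in clone19). Trpm6, its relative in magnesium reabsorption of the distal convoluted tubule, was lower in Rec than in Fh1_fl_fl, at 10.3 against 14.8 CPM (log2 -0.53 ± 0.12). Trpm3 was lower in Rec (log2 -0.73 ± 0.23), clone1 (-1.44 ± 0.27) and clone19 (-1.09 ± 0.27) than in Fh1_fl_fl, where it averaged 2.31 ± 0.273 CPM.

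Apart from Ano3, no anoctamin was called over 2-fold in any comparison. Ano3 (ENSMUSG00000074968, chr2:110655201-110950923), a member described mainly in neurons, had 12.4, 11.2, 8.91, 9.76 and 12.8 CPM in Rec, 0 CPM in every clone1 library, 0, 0.575, 0.175, 0.0983 and 0 CPM in clone19 and 0, 0, 0.081, 0 and 0 CPM in Fh1_fl_fl. All 5 Rec libraries stood alone, and the highest library of the other groups was clone19 replicate 2 at 0.575 CPM. The ratio of Rec to Fh1_fl_fl was 787 (95% counting interval 141 to 31100), and Rec was at least 178-fold higher than clone1, where no read was counted. Ano3 passed the count threshold through Rec alone, and these values are a description. Ano1, the calcium-activated chloride channel TMEM16A of secretory epithelia, was the highest anoctamin per length. It was at 86.6 ± 11.3 CPM in Rec, 89.2 ± 11.7 in clone1, 42.1 ± 3.44 in clone19 and 55.1 ± 6.93 in Fh1_fl_fl, higher in Rec (log2 0.65 ± 0.10) and clone1 (0.69 ± 0.10) and lower in clone19 (-0.39 ± 0.10) than in Fh1_fl_fl. The scramblase gene Ano6 ranged from 93.4 to 113 CPM over the group means, Ano8 from 10.2 to 13.4 CPM and Ano9 from 9.36 to 14 CPM. Ano10 was lower in Rec than in every other group, at 34.6 ± 5.17 CPM against 50.2 ± 3.07 CPM in Fh1_fl_fl (log2 -0.54 ± 0.10).

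Of the 6 CLC members, Clcn4 was the one called over 2-fold in any comparison. Clcn4 (ENSMUSG00000000605, chr7:7282309-7300851), an endosomal exchanger, had 28.9, 23.3, 29.4, 33.9 and 29.3 CPM in Rec, 21.9, 18.3, 21.9, 22.3 and 22.1 CPM in clone1, 25.2, 23, 25.7, 25 and 23.1 CPM in clone19 and 59.7, 59.1, 57.2, 55.8 and 63 CPM in Fh1_fl_fl. All 15 libraries of Rec, clone1 and clone19 lay below the Fh1_fl_fl libraries, with log2 fold changes of -1.03 ± 0.07 in Rec, -1.47 ± 0.08 in clone1 and -1.28 ± 0.08 in clone19 (edgeR adjusted p = 2.70e-12, 1.81e-15 and 7.27e-14 in that order). The predicted opposite-strand gene Gm45631 covers 11.5% of its exon bases. Clcn5, the proximal tubule endosomal exchanger whose human gene is mutated in Dent disease, was lower in all 3 groups too, at 139 ± 19.5 CPM in Rec, 119 ± 21.7 in clone1, 164 ± 16.5 in clone19 and 217 ± 19.4 in Fh1_fl_fl. Clcn7, the lysosomal exchanger, was at 39.8 ± 3.12 CPM in Rec, 48.8 ± 4.57 in clone1, 60 ± 6.98 in clone19 and 73 ± 8.48 in Fh1_fl_fl, lower in Rec (-0.88 ± 0.09), clone1 (-0.58 ± 0.09) and clone19 (-0.29 ± 0.09) on the log2 scale. In the other direction, Clcn2, a plasma membrane chloride channel, was higher in clone1 (7.06 ± 0.669 CPM) and clone19 (7.27 ± 0.979 CPM) than in Fh1_fl_fl (3.84 ± 1.04 CPM), and Rec overlapped Fh1_fl_fl. Clcn6, of late endosomes, was higher in clone19 (log2 0.49 ± 0.10).

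**Figure D5:**
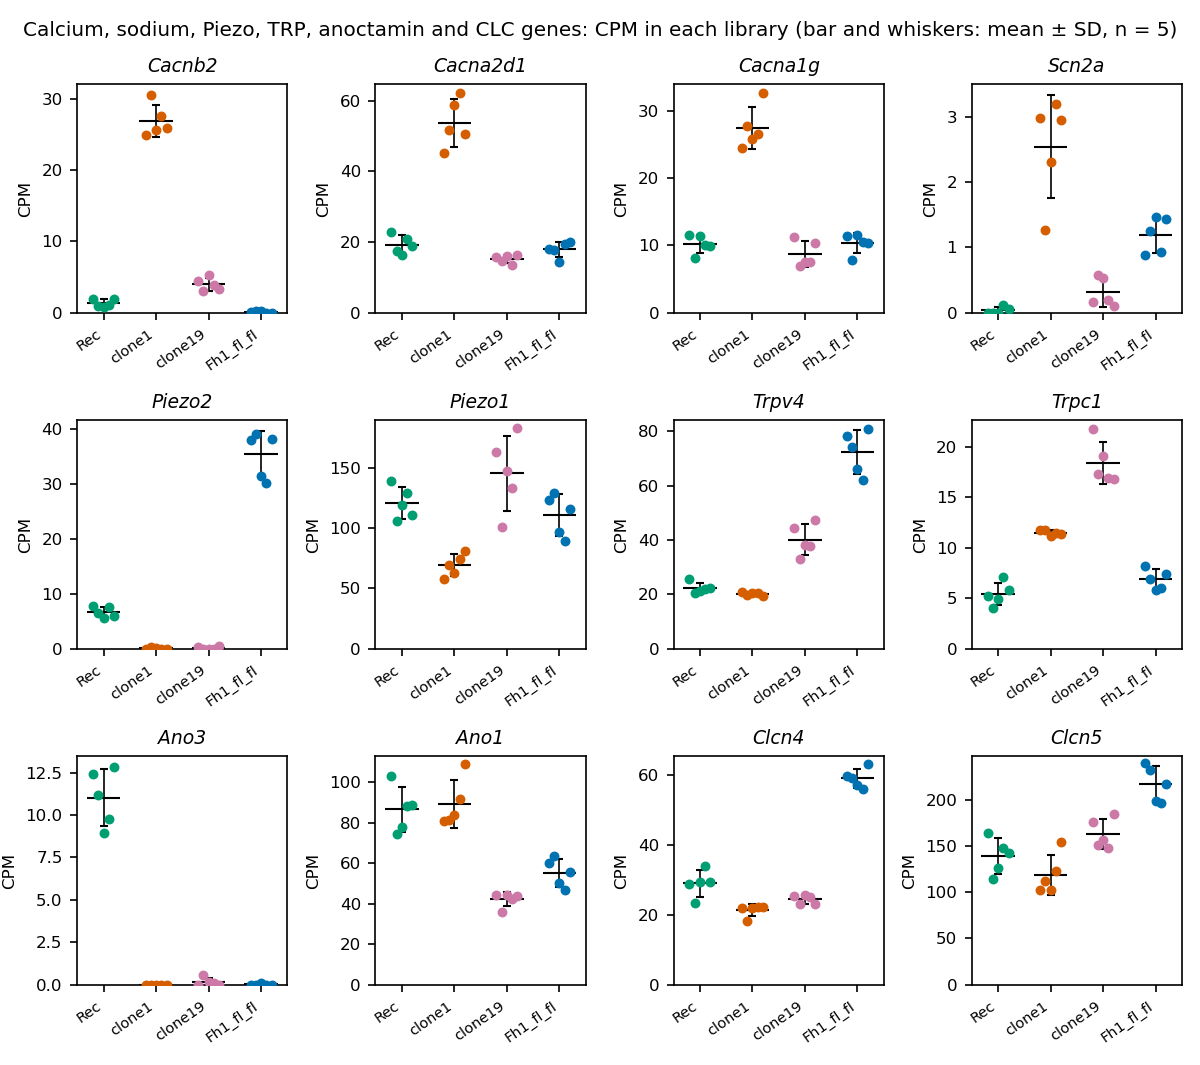
CPM of 12 calcium, sodium, Piezo, TRP, anoctamin and CLC genes in each library (points), with the mean and SD of the 5 libraries of a group (bar and whiskers), on axes that start at 0 and differ between panels. Cacnb2, Cacna2d1 and Cacna1g stand high in clone1, Piezo2, Trpv4, Clcn4 and Clcn5 stand high in Fh1_fl_fl, and Ano3 stands high in Rec.

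Genes that work beside these channels were counted from lists of their own, and are to be read against the same shares of all genes, 33.4% and 37.4% higher and lower in Rec, 38% and 40.5% in clone1 and 36.8% and 36.1% in clone19. Of 6 store-operated calcium entry genes tested, 1 was higher and 4 lower in Rec, 4 higher and 2 lower in clone1, and 2 higher and 1 lower in clone19, against Fh1_fl_fl. Orai2, a pore subunit of that entry pathway, was over 2-fold lower in Rec than in each other group, at 8.47 ± 0.825 CPM in Rec, 21.6 ± 1.11 in clone1, 24.5 ± 3.03 in clone19 and 25.9 ± 2.96 in Fh1_fl_fl. Of 8 calcium release genes of the endoplasmic reticulum and endolysosome tested, 1 was higher and 3 lower in Rec, 4 higher and 3 lower in clone1, and 3 higher and 3 lower in clone19. The inositol trisphosphate receptor Itpr2 was among those higher in both clones, at 75.7 ± 13.3 CPM in Rec, 325 ± 50.6 in clone1, 155 ± 30.3 in clone19 and 63.5 ± 7.22 in Fh1_fl_fl. Of 13 pumps and exchangers for calcium, sodium and potassium tested, 3 were higher and 7 lower in Rec, 5 higher and 8 lower in clone1, and 5 higher and 2 lower in clone19. The plasma membrane calcium pump Atp2b4 was higher in both clones and lower in Rec than in Fh1_fl_fl, at 0.129 ± 0.134 CPM in Rec, 2.68 ± 0.779 in clone1, 5.98 ± 1.29 in clone19 and 0.843 ± 0.263 in Fh1_fl_fl.

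Of the 4 polycystin and Trpa1 genes tested, 1 was higher and 2 lower in Rec, 2 higher and 1 lower in clone1, and 1 higher and 2 lower in clone19, against Fh1_fl_fl. Trpa1, an irritant-gated channel outside the Trpc, Trpm and Trpv families, was over 2-fold lower in Rec and clone19 than in Fh1_fl_fl, at 18.4 ± 1.7 CPM in Rec, 53.5 ± 6.65 in clone1, 5.15 ± 1.3 in clone19 and 50.8 ± 5.63 in Fh1_fl_fl. Pkd2, the polycystin-2 channel of primary cilia, was lower in Rec and over 2-fold lower in both clones, at 76.3 ± 6.99 CPM in Rec, 49.4 ± 6.75 in clone1, 40.9 ± 3.24 in clone19 and 119 ± 7.02 in Fh1_fl_fl. Of the 2 P2X receptor genes tested, which encode ATP-gated channels, none was higher and 1 lower in Rec, and 1 was higher and 1 lower in clone1 and in clone19. P2rx3 was the one higher in both clones, at 2.5 ± 0.675 CPM in Rec, 22.7 ± 2.68 in clone1, 12.5 ± 3.16 in clone19 and 1.96 ± 0.609 in Fh1_fl_fl. P2rx4 was lower in all 3 groups than in Fh1_fl_fl, at 23.2 ± 1.99 CPM in Rec, 19.4 ± 2.81 in clone1, 20.5 ± 1.67 in clone19 and 39.2 ± 3.75 in Fh1_fl_fl. Of 8 volume-regulated and other anion channel genes tested, 3 were higher and 2 lower in Rec, 2 higher and 2 lower in clone1, and 1 higher and 4 lower in clone19. Tmem206, the proton-activated chloride channel, was higher in both clones, at 15.9 ± 1.54 CPM in Rec, 37 ± 3.73 in clone1, 43.9 ± 4.34 in clone19 and 11.9 ± 0.497 in Fh1_fl_fl. Of 6 mechanosensitive TMEM63 and TMC genes tested, none was higher and 4 were lower in Rec, 2 higher and 3 lower in clone1, and 1 higher and 3 lower in clone19. Of the 2 epithelial sodium and acid-sensing channel genes tested, none was higher and 1 lower in Rec, 1 was higher and 1 lower in clone1, and 1 was lower in clone19. Hcn2, the 1 tested gene of the cyclic nucleotide-gated list, was over 2-fold higher in clone1 than in each other group, at 0.988 ± 0.361 CPM in Rec, 4.34 ± 0.491 in clone1, 1.02 ± 0.357 in clone19 and 0.386 ± 0.235 in Fh1_fl_fl.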

How the data were processed

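RNA sequencing counts of 20 libraries, 5 in each of 4 groups named from the titles, were analysed. The authors deposited raw read counts per gene, 1 table per library. Per the submitters' processing notes, TopHat2 2.0.4, HTSeq 0.5.3p9 and DESeq 1.10.1 were used with GRCm38; the strand setting is not given in the sources used here. HTSeq summary lines (no feature, 3.28% to 6.73% of reads; ambiguous, 0.46% to 0.65%; not unique, 28.8% to 40.3%) were left out of totals and tests. Gene symbols, exon lengths and coordinates came from GENCODE M21 (GRCm38), which named 37693 of 39179 genes. Reads that map to near-identical gene copies were not counted, so such genes can be understated.

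Counts of all genes were fitted with edgeR 4.0.16 in R 4.3.3 (TMM scaling, filterByExpr, quasi-likelihood test, 4 group means, no replicate block): 12671 genes were tested and 26508 filtered out. Adjusted p-values are Benjamini-Hochberg over all genes tested, at 0.05; calls over 2-fold used glmTreat against a log2 bound of 1. The script was tested on simulated counts with known changes. CPM used TMM-scaled totals. Where a group had no count, folds are bounds against 3 counts over the group; with 1 to 3 counts they are ratios with exact 95% intervals, which cover counting error only. Alternatives were RLE size factors, library totals, 2 other low-count filters, a replicate block, only the groups compared, DESeq2 1.42.0 and leaving out each library.

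The members, lists and tests were chosen with earlier results of these data known. Full values are given for members that reach 5 CPM in a group and are over 2-fold in at least 1 comparison, other members by group values (2 members are counted but not reported here), and at most 3 genes over 2-fold of each other list.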

Additional observations from a re-analysis of the deposited data

Results flagged for a closer look

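In 6 of 103 groups of 5 libraries, the highest or lowest library of a member lay far from the rest by Dixon's test; chance gives about 1 in 20. Kcnj16 reached 198 CPM in Fh1_fl_fl replicate 1, above the other 4 libraries. In clone1, Kcnk2 (9.97 CPM) and Kcnab3 (15.2 CPM) were low in replicate 5, Clcn4 (18.3 CPM) in replicate 2 and Trpm7 (102 CPM) in replicate 1. In clone19, Ano1 was low in replicate 2, at 36.1 CPM.

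For 6 members, clone1 and clone19 were called in opposite directions against Fh1_fl_fl, and the clones differed from each other by the same edgeR test. The log2 fold change of clone1 against clone19 was 2.21 for Kcnk5, 1.37 for Kcnab3 and 1.09 for Ano1, which were higher in clone1. It was -2.12 for Kcnip1, -1.98 for Kcnq5 and -1.07 for Piezo1, which were higher in clone19. With library totals as the scaling, the clone19 calls of Kcnq5 (edgeR adjusted p = 0.0669) and Piezo1 (edgeR adjusted p = 0.0523) against Fh1_fl_fl were lost.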

How the results depend on the processing

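No member difference that passed the test, in the reported fit or under the alternative, changed sign under any of 27 alternatives, 20 of which left out 1 library. Of 237 calls among 326 member differences, 208 were made under every alternative that gave a value, 29 were lost under at least 1, and 28 further differences were called under at least 1. Of 105 calls over 2-fold, 81 were made under every alternative. The counts of members called stayed within 1.5 times of those reported: against Fh1_fl_fl, 29 to 31 members in Rec, 43 to 47 in clone1 and 36 to 40 in clone19 with 1 library left out. Library totals in place of TMM shift log2 fold changes against Fh1_fl_fl by -0.13 in Rec, -0.14 in clone1 and -0.13 in clone19. These shifts are differences between groups in the mean log2 TMM factor. With library totals, 10 member calls were lost and 15 gained. Clcn3, called higher in Rec, clone1 and clone19, was not called then (edgeR adjusted p = 0.266, 0.220 and 0.306 in that order). DESeq2 lost 10 calls and gained 1. Kcna4 and Cacnb2 in Rec against Fh1_fl_fl had no value when only the groups compared were fitted. The replicate numbers did not pair the libraries: same-numbered libraries of 2 groups had correlations of -0.13 to 0.12 in their deviations, and a library matched its own number best in 9 of 60 cases. With the replicate block, 1 call was lost and 1 gained, and the number over 2-fold in clone19 against Fh1_fl_fl was 17. Members under 1 CPM rest on few counts per library, and their group differences are known less precisely.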
